A study of Mus musculus with 6 samples.

Results

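The 43 genes described here make and guard new DNA: the subunits of the replicative helicase, the origin recognition complex, the clamp and its loader, the polymerases and primase, the enzymes that supply nucleotides and join fragments, cyclin E, and 3 genes of repair and checkpoint control. They were chosen by name from a list of replication and repair genes, and all 43 stood in the deposited table among 22753 gene identifiers. For each of them, any other table gene whose interval overlapped it was read as well, which added 14 genes over 12 of the 43. The cells were C2C12, an established mouse myoblast line which, per the labels, can turn into muscle or bone-forming cells. The compound group was 3 samples grown for 2 days with 10 µM of a screening hit, a dimethylquinolinone that bears a phenylimidazole group, here called the compound. The DMSO group was 3 samples grown for 2 days with the solvent, at 1% of the medium per the labels. All came from the same line in serum-containing medium, and poly-A RNA was counted per gene. The labels do not state whether the samples of a group were separate cultures, and the p-values therefore cover a spread between samples that may be technical only.

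DNA replication begins where the origin recognition complex sits on DNA and, with CDC6 and CDT1, loads the ring-shaped MCM helicase. Cyclin E with its kinase partner helps to start S phase, and the helicase becomes active when CDC45 and the GINS complex join it. The clamp loader then places PCNA on the new strand, where the polymerases, the flap nuclease FEN1 and DNA ligase I complete it and CAF-1 deposits histones. Transcription of most of these genes is known to rise under E2F factors as cells enter S phase, and to fall when myoblasts leave the cell cycle to form muscle.

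Total counts were 493406 to 542649 per library in the compound group and 566348 to 952813 in the DMSO group. DMSO replicate 3 had the highest total. Its log2 CPM correlated with those of the other DMSO libraries at 0.951 and 0.960 over the 2440 tested genes, against 0.975 between DMSO replicates 1 and 2. The compound libraries correlated with one another at 0.950 to 0.956, so DMSO replicate 3 was no further from its group than they were. CPM here are counts relative to the TMM-scaled total of the tested genes. Results that rest on DMSO replicate 3 are given with and without it. Of the defining myoblast regulators, Myod1 had 2, 3 and 3 counts with the compound, against 6, 6 and 25 in DMSO, and Myf5 had at most 3 counts in any library. The 14 myoblast and muscle markers in the table summed to 124 to 142 counts per library with the compound and 140 to 236 in DMSO, with Pax3 at 0. The 8 osteoblast markers summed to 24 to 33 counts per library with the compound and 32 to 72 in DMSO, and Sp7, Bglap, Ibsp and Dlx5 were at 0. The 9 fibroblast, fat cell and macrophage markers summed to 179 to 256 and 282 to 643 counts, nearly all of them under Csf1r, whose exons overlap the opposite-strand gene Hmgxb3. Their part in the results on replication genes was not tested.

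Counts filed under the 43 genes were concentrated in very few of them. Together the genes held 0.528% to 0.581% of all counts per library with the compound and 0.512% to 0.688% in DMSO. Rfc5, a small subunit of the clamp loader, held 48.9% of the genes' counts over the 6 libraries, Gins2 of the GINS complex 25.7% and Ccne2, which encodes cyclin E2, 11.0%. At the other end, 8 genes had 0 counts in all 6 libraries: Mcm5, Cdc6, Gins1, Rfc3, Pola1, Prim2, Tyms and Brca1. A further 23 had a mean count above 0 but under 5. Only 12 genes reached a mean count of 5. A count in some library was seen for 35 of the 43, beside 12548 of the 22753 genes of the whole table.

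Within each complex the counts lay on 1 or a few subunits. Of the 6 MCM subunits, which work as a hexamer, Mcm7 had a mean count of 81.3 and the other 5 had at most 0.833. In the clamp and clamp loader, Rfc5 had 1735 and the other 5 genes at most 4.5. Pcna itself, the sliding clamp that is abundant in dividing cells, had 1, 5 and 4 counts with the compound, against 6, 4 and 7 in DMSO. Gins2 had a mean count of 909.8 and its 3 partners at most 4.17. The origin recognition complex was the exception, with 4 of 6 subunits between 43.3 and 128.5. None of the 4 licensing and firing factors passed a mean count of 1.00, and among the polymerase and primase genes only Pole2, an accessory subunit of polymerase epsilon, reached 8.00, with 11, 1 and 7 counts in the compound libraries, against 4, 9 and 16 in DMSO. Cyclin E1 had a mean count of 0.333 where cyclin E2 had 391.0, and neither Brca2 nor Chek1 passed 3.00. Where a library had 0 counts under a name, up to 3 counts remain possible, which is 3.15 to 6.08 CPM of its total. Only counting error enters this limit, and it does not bound transcripts whose reads were filed elsewhere or nowhere.

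**Figure D1:**
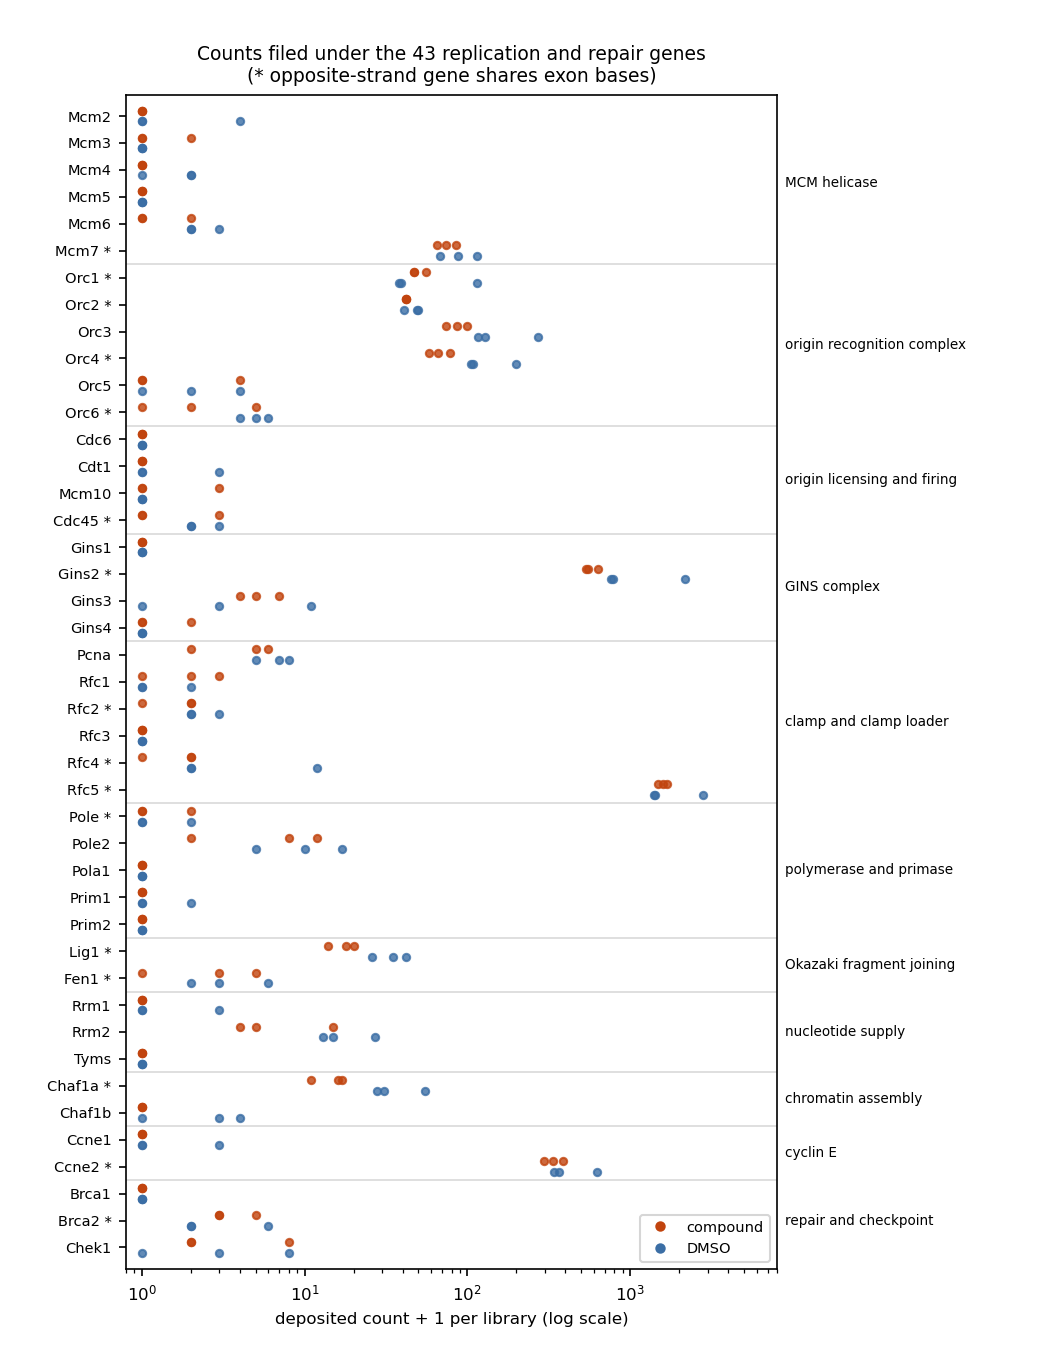
Counts filed under each of the 43 replication and repair genes in the 6 libraries, plotted as count + 1 on a log axis and ordered by role, with compound libraries above DMSO libraries within each gene. Rfc5, Gins2 and Ccne2 stand far to the right, most genes lie at or near 0, and 9 of the 12 genes that reached a mean count of 5 carry the mark for an exon shared with an opposite-strand gene.

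Most counts of the set lay under genes whose exons overlap an opposite-strand gene, a trait shared with the whole table. In GENCODE M21, 16 of the 43 genes share exon bases with a gene on the opposite strand, and these 16 held 95.3% of the counts of the whole set. Their median mean count was 25.1, against 0.333 for the 27 genes without such an overlap. Of the 16, 9 reached a mean count of 5, and of the 27 only Orc3, Pole2 and Rrm2 did. Orc3, at 128.5 the most counted gene without an annotated opposite-strand exon, was the clear exception. In the table as a whole, the median mean count was 2.50 over 5348 genes with an opposite-strand exon overlap and 0 over 16506 without. Their mean counts summed to 561299 with such an overlap and 42312 without. The labels call the libraries stranded, but the strand setting of the counting is not given in the sources used here. Reads of overlapping genes on opposite strands may not be told apart. Counts under a name may in part or in whole be reads of the opposite strand, which was not tested. Each value below is therefore a value of the counts filed under a name.

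Most of the overlaps joined the 3′ ends of convergent genes. Of the 15 pairs of a replication gene and an overlapping table gene, 14 lay on opposite strands and 1, Cdt1 with the very long predicted gene Gm20388, on the same strand. Convergent, tail-to-tail neighbours overlapped 8 of the genes, which held 92.7% of the counts, and 7 of the 8 reached a mean count of 5. Rfc4, which shares 194 exon bases with Eif4a2, had 2.50. The matching share over the whole table was not computed. Rfc5 (mm10 chr5:117378103-117389047, minus strand) shares its last 499 bases with the 3′ end of Wsb2. Gins2 (chr8:120578633-120589304, minus strand) shares 2758 exon bases with Gse1, Ccne2 (chr4:11191351-11204779, plus strand) shares 609 with Ints8, and Chaf1a (chr17:56040416-56068026, plus strand) shares 620 with Ubxn6 inside this interval of the deposited table. The GENCODE model of Chaf1a runs on to 56072289 and shares 4648 exon bases with Ubxn6. Divergent, head-to-head neighbours overlapped 5 genes: Mcm7 and Orc4, which also have a convergent neighbour, Lig1, Cdc45 and Fen1. Of these, Cdc45 and Fen1 had mean counts of 1.00 and 2.33.

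**Figure D2:**
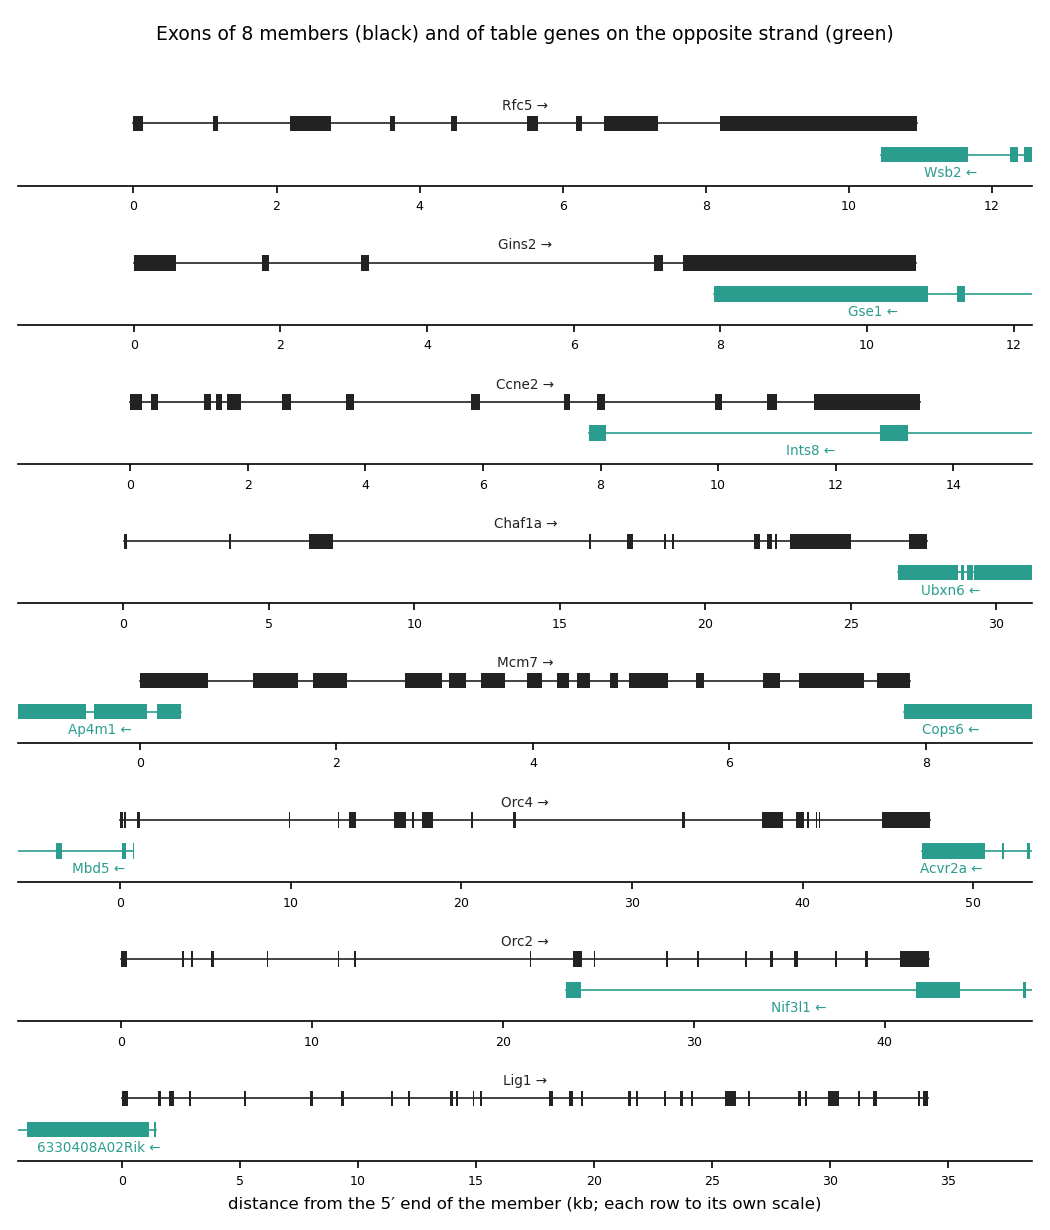
Exon models of 8 replication genes (black) and of the table genes that overlap them on the opposite strand (green), drawn by distance in kb from the 5′ end of the replication gene, each row to its own scale, with arrows for the direction of transcription. Wsb2, Gse1, Ints8, Ubxn6, Cops6, Acvr2a and Nif3l1 meet the 3′ end of their partner, while Ap4m1, Mbd5 and 6330408A02Rik meet the 5′ end.

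Promoter sequences were searched for motifs of cell cycle genes, which some of the genes held and others did not. RefSeq promoters (GRCm38.p6, 250 bases before to 50 after the start) were matched for 35 of the 43 genes; Mcm4, Gins1, Gins2, Gins4, Rfc2, Pole, Prim2 and Ccne2 had no entry. An E2F motif, searched as TTTGGCGC, TTTCCCGC, TTTCGCGC or TTTGCCGC on either strand with overlaps allowed, was found for 14 of the 35 (40.0%), against 2.60% of 27025 genes with a promoter. A gene was scored as holding a motif if any of its promoters did. Per promoter, the E2F letters were found in 33.3% of 42, against 2.26% of 32851. A CCAAT box (CCAAT on either strand) was found for 60.0% of the genes, against 41.1% of all, and the cell cycle homology region letters TTTGAA or TTCGAA for 17.1%, against 21.7%. A match is a description of the letters in this window and not a site of binding. Of the 9 tested genes with a promoter entry, 4 held the E2F letters: Mcm7, Orc1, Orc3 and Lig1. Mcm7 and Lig1 also have promoter entries that do not hold these letters. Promoters of Mcm7, Orc1 and Orc3 are shown because they carry the E2F letters, and that of Rfc5, the only gene of the set whose counts passed the test, because none of the 3 motifs was found in it. Capitals mark the E2F letters, which begin at -165 and 16 in Mcm7, at -27 in Orc1 and at -41 in Orc3, with the RefSeq start as 0. The Mcm7 window (chr5:138171834-138172133, minus strand) also runs across the 5′ end of the divergent gene Ap4m1, which begins at 138172002. The other windows are chr4:108579204-108579503 on the plus strand for Orc1, chr4:34614893-34615192 on the minus strand for Orc3 and chr5:117388974-117389273 on the minus strand for Rfc5.
Mcm7: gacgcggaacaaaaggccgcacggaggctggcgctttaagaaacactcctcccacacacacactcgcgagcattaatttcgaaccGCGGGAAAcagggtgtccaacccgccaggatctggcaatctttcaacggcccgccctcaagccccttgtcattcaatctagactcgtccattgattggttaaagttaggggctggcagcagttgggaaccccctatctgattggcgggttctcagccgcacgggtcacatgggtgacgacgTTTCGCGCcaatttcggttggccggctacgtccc
Orc1: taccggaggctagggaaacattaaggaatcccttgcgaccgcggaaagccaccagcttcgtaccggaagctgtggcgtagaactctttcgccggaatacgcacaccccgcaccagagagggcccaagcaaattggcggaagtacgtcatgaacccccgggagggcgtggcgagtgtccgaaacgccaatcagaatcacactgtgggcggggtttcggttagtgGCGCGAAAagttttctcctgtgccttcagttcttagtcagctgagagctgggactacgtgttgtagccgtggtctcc
Orc3: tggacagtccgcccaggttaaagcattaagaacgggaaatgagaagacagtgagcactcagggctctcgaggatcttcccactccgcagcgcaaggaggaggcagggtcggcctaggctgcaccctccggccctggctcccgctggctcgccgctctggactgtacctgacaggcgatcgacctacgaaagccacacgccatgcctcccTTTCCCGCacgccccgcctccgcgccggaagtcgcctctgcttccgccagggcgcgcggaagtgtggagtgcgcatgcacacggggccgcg
Rfc5: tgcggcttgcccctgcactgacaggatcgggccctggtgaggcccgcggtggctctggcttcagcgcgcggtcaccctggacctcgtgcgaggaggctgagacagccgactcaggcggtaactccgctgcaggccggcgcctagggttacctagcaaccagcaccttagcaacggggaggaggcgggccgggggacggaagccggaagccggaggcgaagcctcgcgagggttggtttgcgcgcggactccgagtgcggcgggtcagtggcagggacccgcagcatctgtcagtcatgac

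Against this background the compound moved the counts of 1 replication gene past the threshold. Rfc5 was higher, and none of the other 10 tested genes differed beyond the spread between libraries at an adjusted p under 0.05. Over all tested genes, 18.0% were called at this threshold by edgeR's quasi-likelihood test with Benjamini-Hochberg adjustment, 7.5% higher and 10.5% lower, so 1 called gene of 11 was no more than the background. At an unadjusted p under 0.05, 1 gene was higher and 1, Chaf1a, was lower. The share of all tested genes at that unadjusted threshold was not computed, here or for the gene groups below. DESeq2 and limma-voom, which called 8.6% and 17.0% of the genes they tested, called Rfc5 alone, as edgeR did. The median log2 change was -0.29 over the 11 tested genes and 0.02 over all tested genes. The remaining 32 genes had too few counts to test, at most 16 in any library. Over the whole table, 2440 of 22753 genes had enough counts to be tested. In bulk RNA, a change in the share of cells in S phase and a change in transcripts per cell cannot be told apart.

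Rfc5 forms part of the pentamer that opens PCNA and loads it on DNA. Its row had 1585, 1490 and 1696 counts in compound replicates 1 to 3, against 1405, 1427 and 2805 in DMSO replicates 1 to 3. Scaled to library size, every compound library lay above every DMSO library, at 3413 ± 227 CPM with the compound and 2497 ± 174 CPM in DMSO (SD, n = 3 each). The log2 change was 0.45 ± 0.12 (SE; 95% interval 0.19 to 0.71), or 1.37-fold, with an adjusted p of 0.0203 in edgeR. The call depended on the libraries used: without DMSO replicate 3 the log2 change was 0.50 with an adjusted p of 1.90e-06, but without any 1 of the other 5 libraries the adjusted p was 0.0596 to 0.112, and with no filter on low counts it was 0.295. The share of all tested genes that passed also shifted, to 8.8%, 9.37% and 10.5% without compound replicates 1, 2 and 3, to 14.4%, 11.3% and 24.2% without DMSO replicates 1, 2 and 3, and to 3.44% with no filter. It was 17.6%, 18.0% and 18.1% with size factors, upper-quartile scaling and a replicate block, and 27.9% among genes that reached a mean count of 50, and Rfc5 passed in each of these. In the authors' deposited table Rfc5 had a log2 change of 0.43 with an adjusted p of 6.52e-06 and was the only gene listed as changed among 15 of the set with an adjusted p. Of all 4542 genes with an adjusted p there, 244 were higher and 351 lower at an adjusted p under 0.05.

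The GINS complex joins CDC45 and MCM in the active helicase. Counts under its Gins2 subunit were 538, 547 and 638 with the compound, against 763, 788 and 2185 in DMSO. The groups overlapped, with the spread in DMSO set by replicate 3: levels were 1211, 1157 and 1324 CPM in compound libraries, against 1323, 1304 and 2098 CPM in DMSO libraries. Its log2 change of -0.36 ± 0.18 (SE) had an adjusted p of 0.192 in edgeR. Without DMSO replicate 3 it was -0.10, with an adjusted p of 0.490. Gins3 had 4, 6 and 3 counts with the compound, against 2, 0 and 10 in DMSO, and was not tested.

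Cyclin E2 binds CDK2 at the start of S phase. Ccne2 had 335, 295 and 385 counts with the compound, against 364, 338 and 629 in DMSO. Levels were 726 ± 90.7 CPM with the compound and 598 ± 36.3 CPM in DMSO (SD, n = 3 each), and compound replicate 2 lay within the DMSO range. The log2 change was 0.28 ± 0.16 (SE; 95% interval -0.06 to 0.61, adjusted p = 0.251 in edgeR).

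Mcm7, the only helicase subunit with counts to test, had 64, 84 and 73 counts with the compound, against 67, 87 and 113 in DMSO. After scaling, every compound library stood above the DMSO libraries, at 158 ± 17.7 CPM with the compound and 123 ± 18.7 CPM in DMSO (SD, n = 3 each). The log2 change of 0.37 ± 0.22 (SE) did not pass the threshold (adjusted p = 0.272 in edgeR), and without DMSO replicate 3 it was 0.27. Groups that do not overlap were seen in 4 of the 11 genes, Mcm7, Orc2 and Rfc5 above DMSO and Chaf1a below it. Over all tested genes the share was 36.4%, 17.2% with the compound above and 19.2% below, so this count is at the background.

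Among the origin recognition subunits the signs were mixed. Orc1, an ATPase of the complex, had 55, 46 and 46 counts with the compound, against 38, 37 and 114 in DMSO. In CPM, DMSO replicate 3 at 109 lay among the compound libraries (95.4 to 124), while the other DMSO libraries stood at 61.2 and 65.9. Its log2 change was 0.39 with all libraries (adjusted p = 0.368 in edgeR), against 0.72 without DMSO replicate 3, where the adjusted p was 0.0527, and 0.24 and 0.21 without DMSO replicates 1 and 2, where it was 0.666 and 0.732. Orc2 had 41 counts in each compound library, against 40, 48 and 49 in DMSO, and every compound library was above DMSO in CPM. Its log2 change of 0.45 ± 0.27 (SE) had an adjusted p of 0.282 in edgeR and was 0.23 without DMSO replicate 3. Orc3 and Orc4, subunits of the same complex, had values of the other sign. Orc3 had 98, 85 and 73 counts with the compound, against 116, 127 and 272 in DMSO. Orc4 had 77, 65 and 57 counts with the compound, against 108, 104 and 198 in DMSO. Their log2 changes of -0.29 ± 0.21 and -0.36 ± 0.21 (SE) did not pass either (adjusted p = 0.371 and 0.270 in edgeR), and without DMSO replicate 3 they were -0.17 and -0.34. With any 1 library left out, Orc3 ranged between -0.43 and -0.17.

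Genes of the later steps had fewer counts and wider intervals. Chaf1a encodes the large subunit of CAF-1, the histone chaperone that follows PCNA. It had 16, 10 and 15 counts with the compound, against 27, 30 and 54 in DMSO, and the groups did not overlap: 29.4 ± 7.57 CPM with the compound and 49.4 ± 2.51 CPM in DMSO (SD, n = 3 each). Its log2 change was -0.75 ± 0.35 (SE; 95% interval -1.49 to -0.01), with an unadjusted p of 0.0470 and an adjusted p of 0.159 in edgeR. Lig1, the ligase that seals Okazaki fragments, had 13, 17 and 19 counts with the compound, against 41, 25 and 34 in DMSO; the groups overlapped in CPM and the log2 change was -0.44 ± 0.38 (SE; edgeR's adjusted p was 0.476), -0.69 without DMSO replicate 3 and -0.096 without DMSO replicate 1. Rrm2, the regulated subunit of ribonucleotide reductase, had 4, 14 and 3 counts with the compound, against 12, 14 and 26 in DMSO. Compound replicate 2 stood above every DMSO library at 29.6 CPM while the other compound libraries stood at 9.0 and 6.22 CPM. The log2 change of -0.62, with a 95% interval of -1.77 to 0.54, did not pass (adjusted p = 0.480 in edgeR). It was -1.59 without compound replicate 2, -0.36 without compound replicate 1 and -0.25 without compound replicate 3.

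**Figure D3:**
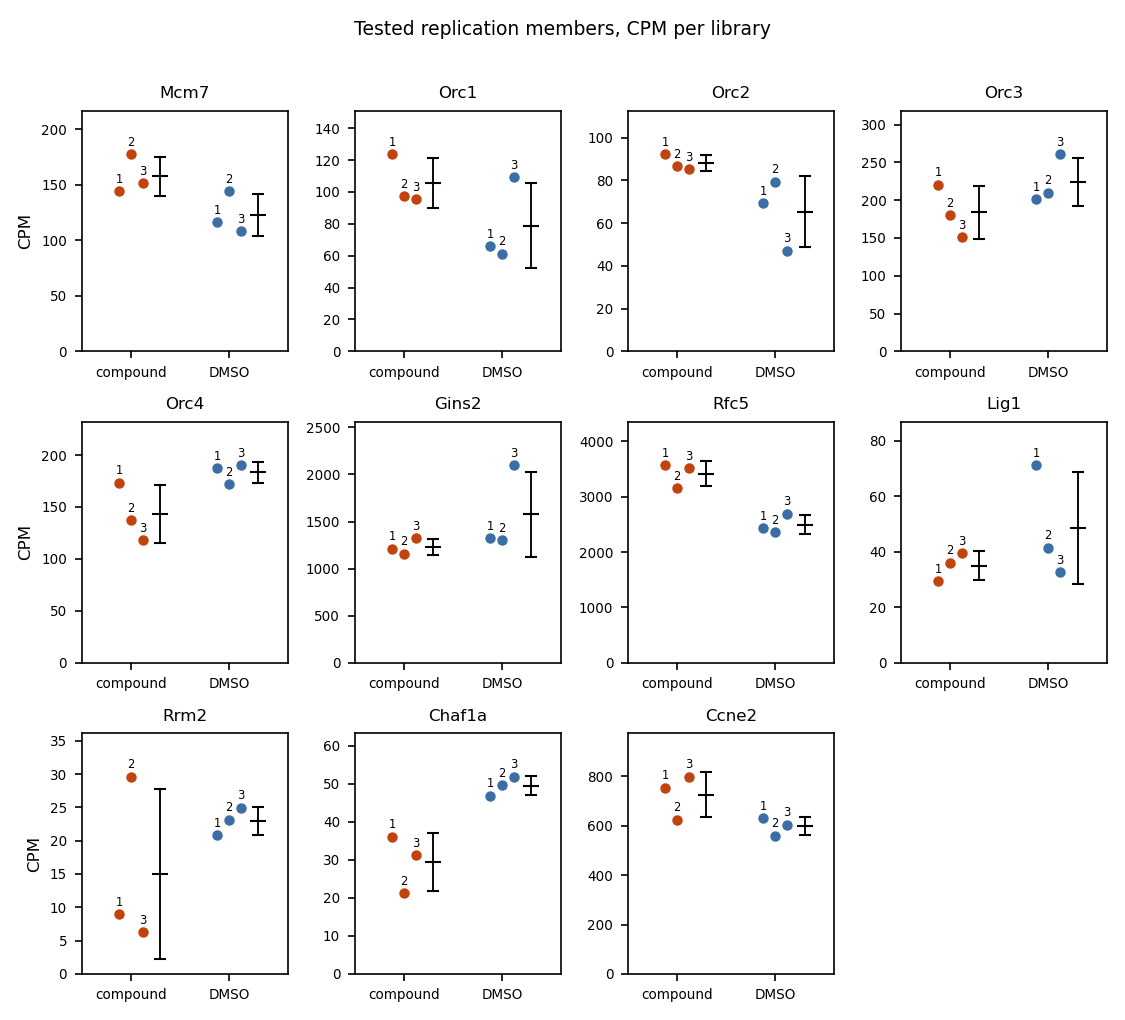
CPM in each library for the 11 tested replication genes, with the replicate number above each point and the mean ± SD of each group (n = 3) beside it; each panel has its own axis from 0. The 3 compound libraries lie above all DMSO libraries for Rfc5, Mcm7 and Orc2 and below them for Chaf1a. DMSO replicate 3 is the high point of its group for Gins2 and Orc1 and, by less, for Orc3, Orc4, Rfc5, Rrm2 and Chaf1a.

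Counts filed under some neighbours were lower with the compound. Of the 8 overlapping table genes with enough counts to test, 3 fell with the compound and none rose: Ubxn6, Gse1 and Ints8. At an unadjusted p under 0.05 the counts were also 3 lower and 0 higher, and DESeq2 and limma-voom each called 3 lower and 0 higher. Over all tested genes 10.5% were called lower at an adjusted p under 0.05 in edgeR. The share at an unadjusted p under 0.05 was not computed. The median log2 change of the 8 was -0.39.

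Ubxn6, a cofactor of the p97 unfolding ATPase that converges on Chaf1a, had 160, 143 and 147 counts with the compound, against 496, 448 and 856 in DMSO. The compound libraries lay close together and far below every DMSO library, at 323 ± 32.6 CPM with the compound and 808 ± 60.7 CPM in DMSO (SD, n = 3 each). This was a log2 change of -1.32 ± 0.16 (SE), or 2.50-fold lower (adjusted p = 5.09e-05 in edgeR), and it passed under every alternative tried. Without DMSO replicate 3 it was -1.32 as well.

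Gse1, which converges on Gins2, had 22, 43 and 31 counts with the compound, against 79, 127 and 138 in DMSO. Every compound library was lower than every DMSO library. The log2 change was -1.21 ± 0.28 (SE), or 2.32-fold lower (adjusted p = 0.00746 in edgeR); without compound replicate 1 it was -1.03 with an adjusted p of 0.0606.

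Ints8, a subunit of the Integrator complex that processes small nuclear RNA, converges on Ccne2 and had 32, 22 and 10 counts with the compound, against 102, 84 and 74 in DMSO. The groups touched: DMSO replicate 3 stood at 71.0 CPM, just under compound replicate 1 at 72.0 CPM. The log2 change was -1.45 ± 0.40 (SE), or 2.74-fold lower (adjusted p = 0.0203 in edgeR). Without DMSO replicate 3 it was -1.78 with an adjusted p of 6.65e-06, whereas without compound replicate 2, compound replicate 3 or DMSO replicate 1 the adjusted p was 0.0590 to 0.0879. In the authors' deposited table Ubxn6, Gse1 and Ints8 were also lower, with log2 changes of -1.33, -1.15 and -1.25.

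The other 5 tested neighbours did not pass. Around Mcm7, Cops6 of the COP9 signalosome had 47, 58 and 63 counts with the compound, against 99, 138 and 100 in DMSO, and the divergent Ap4m1, an adaptor complex subunit gene, had 28, 30 and 19, against 51, 51 and 44. DMSO replicate 3 stood 1.06 and 1.03 log2 units below the mean of the other DMSO libraries for these genes, and the groups overlapped. With all libraries the log2 change was -0.44 for Cops6 (adjusted p = 0.321 in edgeR) and -0.34 for Ap4m1 (0.542). Without DMSO replicate 3 Cops6 passed at -0.74 (adjusted p = 0.00632) and Ap4m1 stood at -0.65 (0.124). Without DMSO replicate 2 Cops6 was -0.16 and Ap4m1 -0.23, and Ap4m1 was -0.19 without DMSO replicate 1 and -0.16 without compound replicate 3. Eif4a2, an RNA helicase of translation initiation that converges on Rfc4, had 42, 40 and 58 counts with the compound, against 77, 85 and 70 in DMSO, with DMSO replicate 3 lower by 1.03 log2 units than the other DMSO libraries; its log2 change was -0.16 ± 0.29 (SE), -0.46 without that library and 0.0017 without DMSO replicate 2. Acvr2a, an activin receptor gene that converges on Orc4, had 137, 108 and 120 counts with the compound, against 128, 122 and 230 in DMSO, and lay above DMSO in every compound library, but its log2 change of 0.28 ± 0.19 (SE) did not pass (adjusted p of 0.343 in edgeR) and was 0.16 without compound replicate 1. Nif3l1, which overlaps Orc2, had 261, 273 and 268 counts with the compound, against 346, 384 and 553 in DMSO, with a log2 change of -0.04 (95% interval -0.36 to 0.29). Of the untested neighbours, Wsb2 beside Rfc5 had 5, 6 and 8 counts with the compound, against 7, 16 and 19 in DMSO, and the others had a mean count of at most 4.83.

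**Figure D4:**
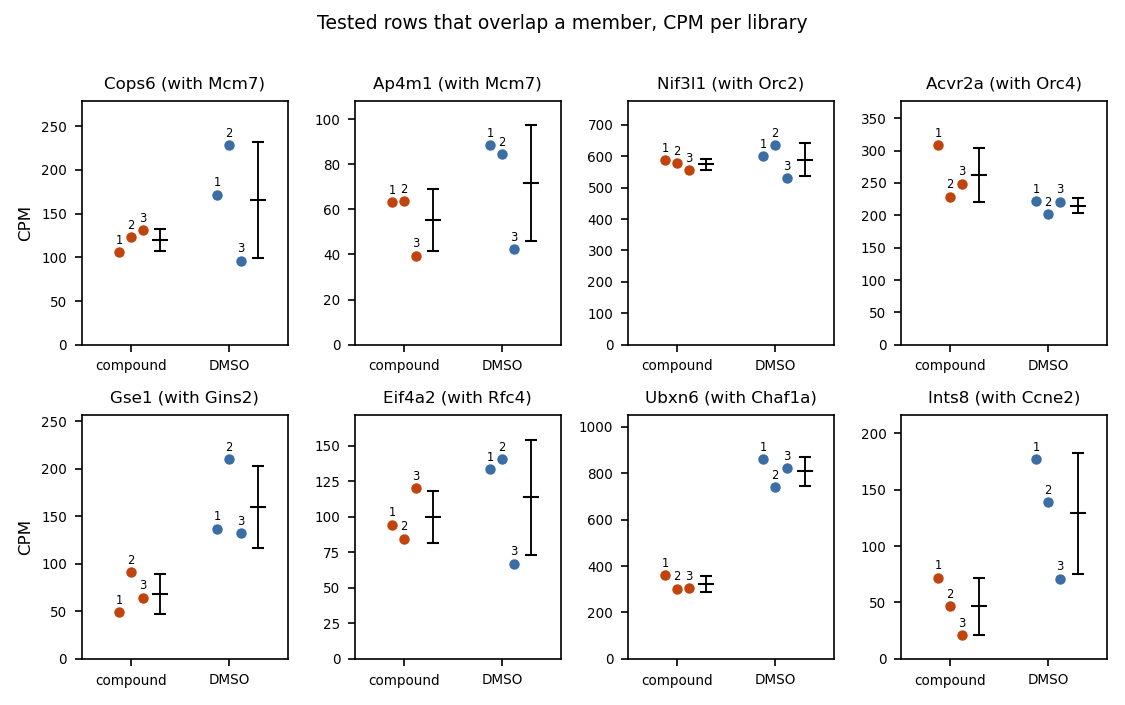
CPM in each library for the 8 tested table genes that overlap a replication gene, named in brackets, with replicate numbers and the mean ± SD of each group (n = 3); each panel has its own axis from 0. Ubxn6 and Gse1 are lower in every compound library. DMSO replicate 3 is the low point of its group for Cops6, Ap4m1, Eif4a2 and Ints8 and, by less, for Gse1 and Nif3l1.

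Ratios within a pair differed between libraries. The log2 ratio of the counts of a replication gene to those of its neighbour needs no scaling between libraries. For Ccne2 over Ints8 it was 3.39, 3.75 and 5.27 in the compound libraries, against 1.84, 2.01 and 3.09 in DMSO. For Chaf1a over Ubxn6 it was -3.32, -3.84 and -3.29 with the compound, against -4.20, -3.90 and -3.99 in DMSO. Ubxn6 fell, and Chaf1a, with a log2 change of -0.75, did not pass. For Orc4 over Acvr2a the order was turned, -0.83, -0.73 and -1.07 with the compound and -0.25, -0.23 and -0.22 in DMSO. Mcm7 over Cops6 was at 0.45, 0.53 and 0.21 with the compound, against -0.56, -0.67 and 0.18 in DMSO. Orc2 over Nif3l1 was at -2.67, -2.74 and -2.71 with the compound, against -3.11, -3.00 and -3.50 in DMSO. For these ratios the exact permutation test gave p = 0.1, two-sided, the smallest that 3 against 3 libraries allow, or 0.14 adjusted over the 7 pairs computed, so none could pass. For Gins2 over Gse1 the ratios were 4.61, 3.67 and 4.36 with the compound and 3.27, 2.63 and 3.98 in DMSO, which overlap (exact permutation p = 0.2). Mcm7 over Ap4m1 also overlapped, at 1.19, 1.49 and 1.94 with the compound and 0.39, 0.77 and 1.36 in DMSO (exact permutation p = 0.2).

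**Figure D5:**
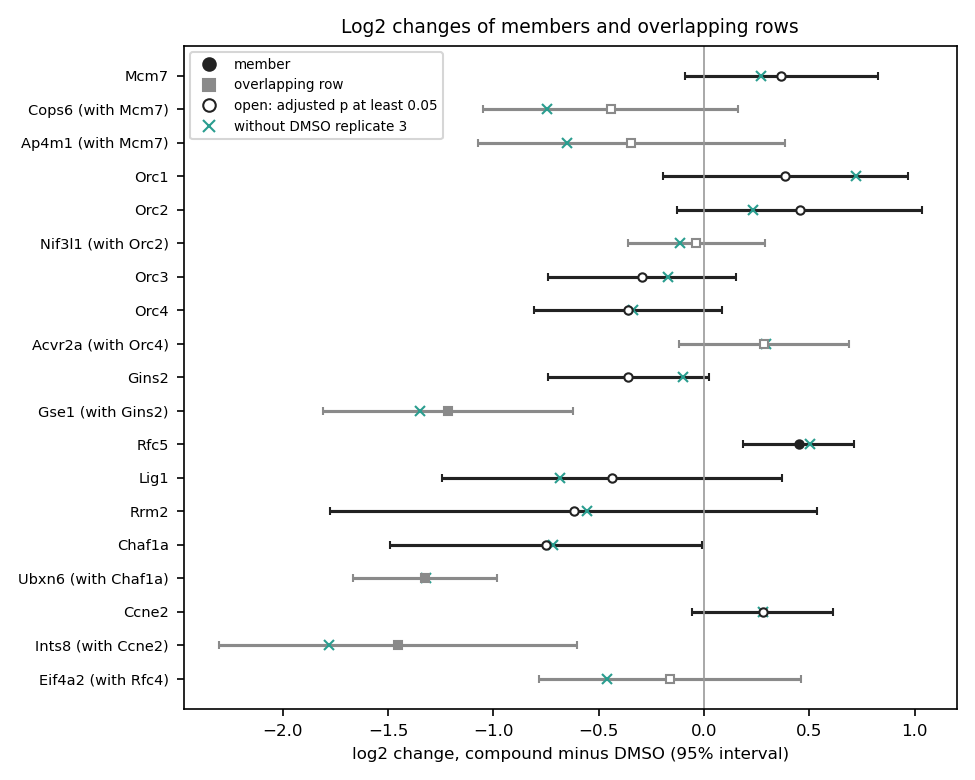
Log2 changes, compound minus DMSO, with 95% intervals for the 11 tested replication genes (circles) and the 8 overlapping table genes (squares), filled where the adjusted p was under 0.05; crosses give the value without DMSO replicate 3. Among the circles only Rfc5 is filled, at 0.45, and among the squares Gse1, Ubxn6 and Ints8, between -1.21 and -1.45.

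In wider lists of the same pathways most genes also had too few counts to test, as in the table, where 2440 of 22753 were tested. Of 46 further replication fork and origin genes in the table, 10 were tested and none passed in edgeR, DESeq2 or limma-voom, with 0 higher and 1 lower at an unadjusted p under 0.05. The most counted of them, Rnaseh2a, a ribonuclease H2 subunit gene overlapped by Prdx2, and Donson, a fork protection gene overlapped by Son, had log2 changes of 0.30 ± 0.24 and 0.29 ± 0.14 (SE). Without DMSO replicate 3 Rnaseh2a was at -0.012 and Donson passed (0.29, adjusted p = 0.0365 in edgeR). Of 33 genes that control the passage from G1 to S, 7 were tested and none passed with any of these tools (0 higher and 1 lower unadjusted). Cdk4, the gene of the D-type cyclin kinase, is overlapped by Tspan31 and had a log2 change of -0.08 ± 0.13 (SE). That of Rb1, the retinoblastoma gene overlapped by Rcbtb2 and Lpar6, was 0.47 ± 0.23 (SE).

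A few repair and nucleotide genes passed, where 18.0% of all tested genes did, 7.5% higher and 10.5% lower. Of 13 tested mismatch, excision and end joining genes, 3 fell and 1 rose. Tdg, the thymine DNA glycosylase gene, had 24, 22 and 42 counts with the compound, against 102, 144 and 273 in DMSO, and fell by 1.85 ± 0.27 on the log2 scale (SE, adjusted p = 0.000218 in edgeR); its exons are overlapped by Glt8d2. Ercc2, a helicase gene of nucleotide excision repair overlapped by Klc3, fell by 1.59, and Dclre1c, the Artemis nuclease gene overlapped by Suv39h2, by 0.99. Ddb2, which recognises ultraviolet damage and is overlapped by Acp2, rose with a log2 change of 0.55. Of 9 tested recombination and Fanconi genes, Fancc, overlapped by Gm16133 and 2010111I01Rik, rose, with 44, 26 and 59 counts with the compound, against 15, 9 and 44 in DMSO (log2 change 1.66 ± 0.39, SE, adjusted p = 0.00858 in edgeR). Of 5 tested checkpoint genes, Mdc1, a mediator of the damage response with no annotated opposite-strand exon, rose with a log2 change of 1.57 and a mean count of 18.8, and of 6 tested nucleotide supply genes, Shmt1, a one-carbon enzyme gene overlapped by Smcr8, rose by 0.58. Of these calls, Tdg passed whichever library was left out. The others were lost in places: Shmt1 without any of the compound libraries or DMSO replicate 1 or 2, Fancc without compound replicate 3, Ddb2 without any compound library or DMSO replicate 1, Ercc2 without compound replicate 2 or 3 or DMSO replicate 1 or 2, Dclre1c without compound replicate 1 or 2 or DMSO replicate 1, and Mdc1 without compound replicate 1 or 3 or DMSO replicate 2. The adjusted p in these fits was 0.0508 to 0.153 in edgeR.

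Among 6 tested mitosis genes, 2 fell, beside 10.5% lower over all tested genes: Ube2c, overlapped by Tnnc2, by 0.86 and Pkmyt1, overlapped by Paqr4, by 2.01 on the log2 scale; Ube2c did not pass without compound replicate 1 or 2 (adjusted p 0.0582 and 0.0538 in edgeR). Of 6 tested myoblast and muscle markers, 1 rose and 1 fell, beside 7.5% higher and 10.5% lower over all tested genes. Des, the desmin gene overlapped by Gm15179, rose with a log2 change of 0.99. Msc, which represses myoblast differentiation and is overlapped by Gm9947, fell by 1.21. Des did not pass without compound replicate 1 or 2 or DMSO replicate 2 (adjusted p 0.0518 to 0.0852 in edgeR), and Msc passed only when the library left out was DMSO replicate 3 (0.0781 to 0.149 without each of the others). The only tested osteoblast marker, Runx2, overlapped by Runx2os1, had a log2 change of 0.01. Csf1r, the only tested marker of other cell types, had a log2 change of -0.19. Neither passed in edgeR, DESeq2 or limma-voom, or at an unadjusted p under 0.05. Whether the muscle markers bear on the replication genes was not tested.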

How the data were processed

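The labels describe poly-A libraries and call them stranded; the submitters' processing notes name mm10, STAR 2.3.0e and HTSeq 0.6.0. Every test started from the raw read counts deposited by the authors for each gene and library. The authors also deposited a normalised signal, log2 fold changes, a Wald score and p-values, from DESeq2; these were used only in sentences that name the authors' deposited table. Of 24725 rows, those of 930 repeated identifiers carried equal counts and were used once. The table lists nearly only protein-coding genes, so totals are part of a library and not its depth.

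Counts of the whole table were fitted in edgeR 4.0.16 under R 4.3.3, with TMM scaling, the filterByExpr filter and two-sided quasi-likelihood tests, adjusted by Benjamini-Hochberg over 2440 tested genes with a threshold of 0.05. An SE is the log2 change, without its sign, over the root of the F value. Strands and exons are those of GENCODE M21, which holds all 43 genes, 30 of them with the start and end of the table. DESeq2 1.42.0 and limma 3.58.1 served as alternatives, beside other scalings and filters, a replicate block and each library left out. Simulated data for this comparison, with 2315 genes tested, gave back 53.6% of 2-fold and 95.5% of 4-fold changes, and 6 of 143 calls were false. Python 3.11.15 with scipy 1.17.1 and matplotlib 3.10.9 made the exact tests and figures.

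Counts in each library are given for genes of the set that were tested or reached a mean count of 5, and for tested neighbours. From each wider list the text names genes past the threshold, up to 4 by smallest p, or else the 2 tested genes with the highest mean count. The genes and lists were chosen with earlier results of these data known.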

Additional observations from a re-analysis of the deposited data

How the results depend on the processing

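Directions of the 11 tested replication genes were kept under each of the 13 alternatives in which they were fitted; Orc2, Lig1, Rrm2 and Chaf1a were not among the genes that reached a mean count of 50 and were fitted under the other 12. Of 242 values for these genes and the 8 tested neighbours, 230 kept their direction and side of the threshold, 10 lost the threshold, 1 passed it (Cops6 without DMSO replicate 3) and 1 reversed (Eif4a2, 0.0017 without DMSO replicate 2, the upper end of its values with 1 library left out, down to -0.46). Of 214 values for named genes of the wider lists, 165 kept both, 43 lost the threshold, 1 passed it and 5 reversed: Rnaseh2a, -0.012 without DMSO replicate 3, and Runx2, -0.0034 with DESeq2, -0.090 with no filter, -0.099 without compound replicate 1 and -0.20 without DMSO replicate 2. With 1 library left out these genes reached up to 0.46 and 0.12. The cause was not tested.

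DESeq2 called 114 genes higher across the table, against 183 in edgeR; it called 0 nucleotide supply genes higher, 1 excision and end joining gene lower, 0 checkpoint genes higher, and 0 muscle markers higher or lower. With no filter, where 12548 genes were tested, 0 replication genes were higher, 0 nucleotide supply genes were higher and 1 lower, 0 excision and end joining genes were higher, 1 G1 to S gene was lower and 0 muscle markers were lower. Among genes that reached a mean count of 50, 0 recombination and 0 checkpoint genes were higher, 1 excision and end joining gene and 1 mitosis gene were lower, and 0 muscle markers were lower; fewer genes are tested there. Upper-quartile scaling and limma-voom also called 0 muscle markers lower.

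With the replicate number as a block, 442 genes passed, 197 higher and 245 lower; 1 replication gene was higher and 0 muscle markers were lower, Msc being lost (adjusted p = 0.0668 in edgeR). The deviations of same-numbered libraries from their group means correlated at -0.011, 0.023 and 0.018, and not every library correlated best with its own number. With 3 libraries per group, this check cannot tell whether same-numbered libraries were prepared together.

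With 1 library left out, 93 to 259 genes were higher and 143 to 359 lower across the table. Replication genes called higher numbered 0 to 1, and overlapping neighbours called lower 2 to 4. In the wider lists, higher calls numbered 0 to 1 each for fork and origin, nucleotide supply, recombination, excision and end joining, checkpoint, mitosis and muscle genes. Lower calls numbered 0 to 1 each for nucleotide supply, recombination, checkpoint and muscle genes, 1 to 4 for excision and end joining genes and 1 to 2 for mitosis genes. The low counts limit what can be seen: 32 of the 43 replication genes could not be tested, and 2440 of the 22753 genes of the table were.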
